A study of Mus musculus with 6 samples.

Results

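The liver is the main site where amino acids in excess of need are broken down. The enzymes described here are 45 genes of amino acid catabolism grouped by the amino acid they act on: phenylalanine and tyrosine, tryptophan, the branched-chain amino acids, histidine, proline, glycine with serine and threonine, lysine, glyoxylate, the alanine and aspartate aminotransferases, and cysteine. They were taken by gene name from the deposited table, which listed 44 of them. Of these, 43 had counts, out of 19594 genes with counts among 33495 listed. Tdh, threonine dehydrogenase, was listed with empty cells, and Agxt2, a mitochondrial alanine-glyoxylate aminotransferase, was not found under that name. All 43 with counts passed the filter on low counts and were tested.

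The libraries came from livers of male C57BL6 mice, 2 months old, 3 of them wild type and 3 SHP -/-. No treatment is named, and neither the SHP allele nor the diet or feeding state is described in the sources used here. Cap-bearing RNA was selected from total RNA with a high-affinity EIF4E variant. How completely this selection excluded other RNA was not tested, and mitochondrially encoded genes still took counts, as given below. The comparison asks how livers labelled SHP -/- differ from wild type. SHP, encoded by Nr0b2, is an orphan nuclear receptor that lacks a DNA-binding domain and acts as a corepressor of transcription factors such as LRH-1.

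As background, breaking down an amino acid usually starts with the removal of its nitrogen, by an aminotransferase that passes the amino group to a keto acid or by a lyase or dehydratase that frees ammonia. The carbon skeleton then becomes pyruvate, a citric acid cycle intermediate or acetyl-CoA, and so feeds glucose synthesis, ketone bodies or oxidation. Several of these enzymes, such as tyrosine aminotransferase and serine dehydratase, are known to follow glucocorticoids, glucagon and protein intake. Branched-chain amino acids are an exception in the liver, which has little of the branched-chain aminotransferase and takes up their keto acids.

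Library totals ran from 4494353 to 7225842 counts. Nr0b2 had 104, 59 and 85 counts in the wild-type libraries and 29, 36 and 77 in the knockout libraries, 14.5 ± 2.87 against 8.01 ± 2.03 CPM (counts relative to the scaled library total; mean ± SD, n = 3). All knockout CPM lay below all wild-type CPM, with a log2 difference of -0.81 ± 0.25 (SE, adjusted p = 0.0443). That difference was past the threshold only in the fit without knockout library 3, among the 6 fits that each leave out 1 library. Nr0b2 transcripts remained in the libraries labelled knockout, at 0.57 times the wild-type level, and the deleted part of the gene is not described, so this level does not by itself check the label. Mitochondrially encoded genes took 10.2% to 10.3% of counts in wild type and 5.66% to 7.10% in knockout. Of the 9 tested hepatocyte markers 1 rose (Fgb), with a summed level of 82870 to 105100 CPM in wild-type livers and 90790 to 95200 CPM in knockout. Periportal markers, of which 2 rose (Gls2 and Igfals) and 3 fell (Cyp2f2, Arg1 and Cdh1) of 15, summed to 62390 to 81090 CPM in wild-type livers and 66990 to 74200 CPM in knockout, and pericentral markers, of which 3 rose (Oat, Rhbg and Gulo) and 1 fell (Rgn) of 15, to 10670 to 13150 and 11380 to 13200 CPM. Alb was in both the hepatocyte and the periportal list and made up most of both sums. It stood at 48300 to 66570 CPM in wild-type livers and 53760 to 61160 CPM in knockout. Both sums therefore say little about the other markers of these lists. Of 12 macrophage markers 3 rose (Marco, C1qa and C1qc), with sums of 431 to 505 CPM against 437 to 670 CPM. Endothelial markers summed to 542 to 601 CPM against 368 to 565 CPM, with 1 of 10 called higher (Lyve1) and none called lower. Their log2 differences were negative for 8 and positive for 2 (median -0.21). Stellate and matrix markers summed to 447 to 494 CPM against 292 to 504 CPM, with 1 of 10 higher (Col4a1) and 1 lower (Rgs5). Lrp2, the 1 kidney tubule marker that could be tested, rose from 1.25 ± 0.706 to 6.41 ± 1.52 CPM, while Aqp2 and Slc5a2 were near 0. Cela1, the 1 tested pancreatic acinar marker, rose from 11.2 ± 2.59 to 21.5 ± 2.51 CPM, with Ctrb1 near 0. Without wild-type library 3 the calls of Fgb, Cyp2f2, Cdh1, Gls2, Igfals, Oat, Marco, C1qa, C1qc, Lyve1, Col4a1, Rgs5 and Cela1 were all lost, and those of Arg1, Rhbg, Gulo, Rgn and Lrp2 were not. Marco was called in 1 of the 6 fits without 1 library, Fgb, C1qc, Lyve1 and Col4a1 in 2, Igfals in 3 and Gls2 in 4. None of the tested cholangiocyte, lymphocyte or erythroid markers (3, 1 and 4) passed. The part of these shifts in the results below was not tested. In whole liver, fewer cells of a type and less RNA per cell cannot be told apart.

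RefSeq promoter windows (GRCm38.p6, from 250 bases before to 50 bases after each start) were matched by symbol for 38 of the 45 genes, with 41 windows among 32851 in the table. The 150 bases before the start are shown for 3 genes that rose and 1 that fell in knockout liver. These 4 were chosen after their values were seen. The windows are of annotated starts, and which start the counted transcripts used was not tested. Csad has 2 annotated start sites. Capitals mark each CG dinucleotide, and each sequence runs 5′ to 3′ along the strand of the gene.
Csad, upstream start, chr15:102205053-102205202, minus strand: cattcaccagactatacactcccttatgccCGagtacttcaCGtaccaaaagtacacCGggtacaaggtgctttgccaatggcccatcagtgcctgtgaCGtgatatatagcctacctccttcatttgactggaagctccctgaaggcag
Csad, downstream start, chr15:102189044-102189193, minus strand: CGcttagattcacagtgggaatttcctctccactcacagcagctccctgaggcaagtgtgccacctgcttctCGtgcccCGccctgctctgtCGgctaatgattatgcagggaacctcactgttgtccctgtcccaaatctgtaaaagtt
Gcat, chr15:79030724-79030873, plus strand: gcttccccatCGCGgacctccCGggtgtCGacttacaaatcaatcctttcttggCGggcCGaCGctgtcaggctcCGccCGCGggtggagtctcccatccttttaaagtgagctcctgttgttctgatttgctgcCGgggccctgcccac
Gldc, chr19:30175442-30175591, minus strand: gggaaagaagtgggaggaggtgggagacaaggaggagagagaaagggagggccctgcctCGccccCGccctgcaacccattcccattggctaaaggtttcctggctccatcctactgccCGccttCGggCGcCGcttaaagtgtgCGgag
Tat, chr8:109990286-109990435, plus strand: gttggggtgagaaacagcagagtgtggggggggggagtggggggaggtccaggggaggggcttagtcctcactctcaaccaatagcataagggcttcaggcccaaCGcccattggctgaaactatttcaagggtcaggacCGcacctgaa
These stretches hold 4 and 4 CG dinucleotides at the starts of Csad, 11 at Gcat, 7 at Gldc and 2 at Tat, against a median of 4 (quartiles 1 and 11) over all windows. Both strands of the full windows were searched for the letters TATAAA (the TATA box core), CAAGGTCA (a half-site letter string read by LRH-1 and related receptors) and TGATGNAA (a core of the ATF4 response element). TATAAA stood in 8 of 41 windows (19.5%) against 13.6% of all windows in the table: those of Hgd, Pcbd1, Tdo2, Hal, Ftcd, Agxt2 and Got2. It stood in 0 of the 9 genes past the threshold that had a window and in 6 of the 28 tested genes that were not past it. CAAGGTCA stood in none of the 41 windows, against 1.56% of all windows. TGATGNAA stood in 4.88% of them, at Hao1 and Got1, against 3.97% of all windows, and none of the 41 held more than 1 of the 3 strings. A match describes letters and not a binding site, and a missing match says only that the letters are not in the window.

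Across the 43 enzymes, 9 rose and 2 fell in knockout liver, and 32 did not pass (limma voom, Benjamini-Hochberg adjusted p under 0.05). Higher were Csad, Sdsl, Gcat, Sds, Gpt2, Aldh4a1, Gldc, Agxt and Fah, and lower were Hibch and Tat. The share called was 25.6% of the enzymes against 14.5% of the 11794 genes tested; 20.9% were called higher against 7.58% of all genes, and 4.65% lower against 6.94%. Without wild-type library 3, 340 and 280 of all genes were called higher and lower, in place of 894 and 819, and 8 and 1 of the enzymes. The enzymes are abundant, with 43 to 19130 counts per library and a median standard error of 0.11 on the log2 scale against 0.20 over all genes, which bears on how often a difference of given size is called. The groups did not overlap for 21 of the 43 (48.8%, against 35.1% of all genes): knockout lay above wild type for 15 and below it for 6.

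Most differences were small. The log2 difference (knockout minus wild type) had a median of 0.11 over the 43 enzymes and -0.01 over all genes tested, whose middle range (quartiles) ran from -0.29 to 0.30. It was positive for 28 enzymes and negative for 15. Only Csad and Sdsl exceeded 2-fold. At an unadjusted p under 0.05 there were 20 enzymes. The share of all genes at that cut is not given here, so this count is not read as a result about the enzymes. Together the 43 enzymes took 1.72% to 1.89% of scaled counts in wild type and 1.81% to 1.90% in knockout, so their summed share overlapped between the groups. Of the 11 calls, 9 were made in each of the 6 fits that leave out 1 library. Tat was called in none of these 6 fits, and Fah was lost without wild-type library 3.

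**Figure D1:**
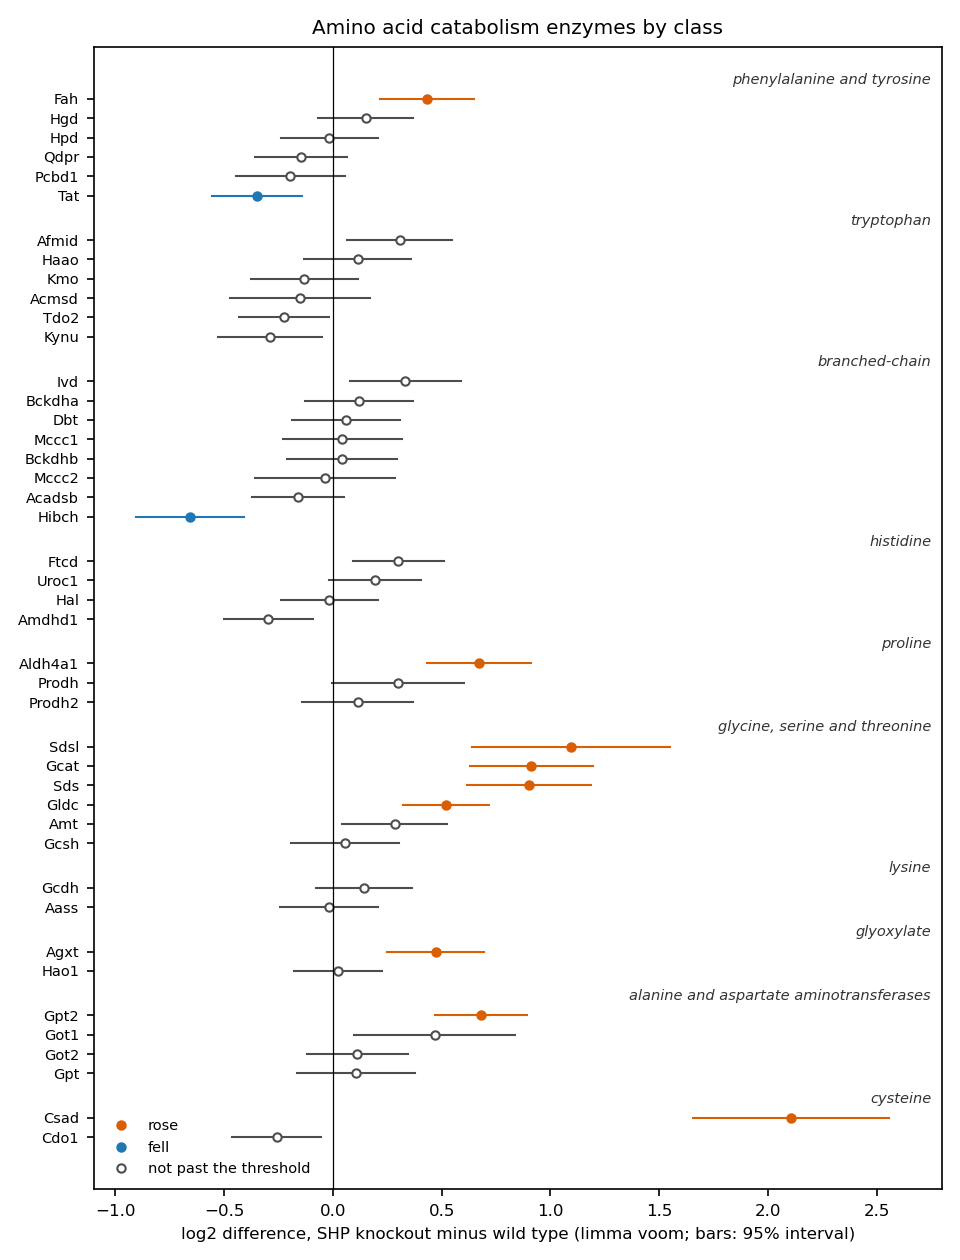
Log2 difference between SHP knockout and wild type for each of the 43 enzymes, by the amino acid they act on (x axis: log2 difference from limma voom; bars: 95% confidence interval). Glycine, serine and threonine enzymes all lie to the right of 0, 4 of 6 of them past the threshold, and Csad at 2.11 lies farthest from 0.

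On a scale of CPM per exonic kilobase, which allows genes to be compared, transcript levels in wild type spanned from 1177 for Cdo1, 1154 for Hpd, 981 for Tat and 565 for Tdo2 down to 14.2 for Acmsd, 6.72 for Mccc1 and 6.15 for Sdsl. Cdo1, Hpd, Tat and Tdo2, which act early on cysteine, tyrosine (Hpd and Tat) and tryptophan, were also the 4 most abundant in knockout, at 985, 1139, 772 and 484 CPM per kilobase. Csad moved from rank 26 of 43 in wild type (68.0 CPM per kilobase) to rank 6 in knockout (275.5). Bckdha was counted over only 497 exonic bases, so its level per kilobase rests on a short model.

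**Figure D2:**
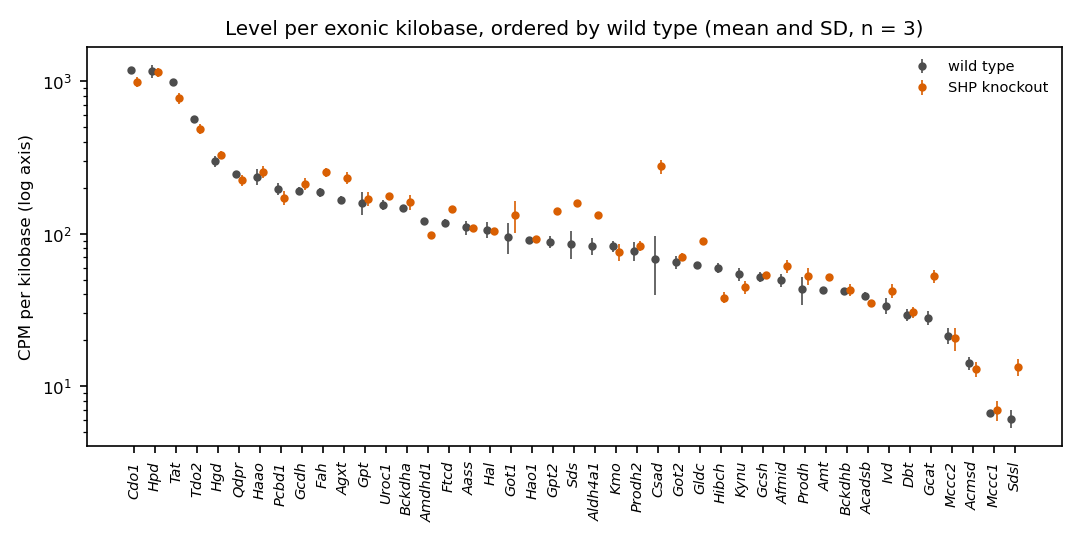
Level of each of the 43 enzymes in CPM per exonic kilobase (log y axis), ordered by wild type; points are group means and bars are SD (n = 3). Cdo1, Hpd and Tat stand highest in both groups, Sdsl and Mccc1 are lowest in wild type and Mccc1 and Acmsd in knockout, and Csad shows the widest gap between the groups.

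Of the 2 cysteine enzymes, Csad rose and Cdo1 did not pass the threshold. Csad, cysteine sulfinate decarboxylase, makes hypotaurine, the precursor of the taurine to which mouse bile acids are conjugated. Its level was 96.7, 223 and 143 CPM in the wild-type libraries and 559, 626 and 687 CPM in the knockout libraries. The groups lay far apart, with 154 ± 63.8 against 624 ± 64.0 CPM (SD, n = 3), and the wild-type libraries spread from 96.7 to 223 CPM among themselves. Csad (ENSMUSG00000023044; mm9 chromosome 15, 102007429 to 102019474) rose by a log2 difference of 2.11 ± 0.21 (SE; 4.30-fold, adjusted p = 7.261e-05), and by 1.81 to 2.41 with 1 library left out. The authors' deposited table gives a log2 ratio of 2.02 for it. Cdo1, cysteine dioxygenase, supplies the substrate of Csad by oxidising cysteine to cysteine sulfinate. Cdo1 stood at 1914, 1773 and 1805 CPM in wild-type livers and at 1416, 1548 and 1632 CPM in knockout. All knockout values were below all wild-type values, with a log2 difference of -0.26 ± 0.10 (SE), but the adjusted p of 0.0852 missed the threshold. Ratios between enzymes here and below describe pairs chosen with the values known, with no test. Of 6 pairs computed, the ratios of Got1 to Got2 and of Sds to Sdsl overlapped between the groups. The others, among them Prodh to Prodh2, did not. Per kilobase, the ratio of Csad to Cdo1 within a library was 0.0347, 0.0863 and 0.05425 in wild type and 0.271, 0.278 and 0.289 in knockout. Csad lay above and Cdo1 below wild type in all knockout libraries, so this ratio had to separate and adds no evidence.

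The glycine, serine and threonine group held the most calls of the 10 groups: 4 of its 6 tested enzymes rose, none fell, and all 6 log2 differences were positive (median 0.71). Their summed level was 529, 483.5 and 485.6 CPM in wild-type livers and 750.0, 733.6 and 744.4 CPM in knockout. Sds, serine dehydratase, turns serine into pyruvate and ammonia, a first step from serine toward glucose. Sds stood at 117, 77.7 and 91.5 CPM in wild-type livers and 177, 173 and 178 CPM in knockout. The knockout libraries were nearly level and lay above all wild-type libraries (95.35 ± 19.8 against 176 ± 2.54 CPM, SD, n = 3). Sds (ENSMUSG00000029597; mm9 chromosome 5, 120926540 to 120933941) rose by 0.90 ± 0.13 on the log2 scale (SE, adjusted p = 0.000919). Sdsl, the serine dehydratase-like gene, lies 3720 bases from Sds on the same chromosome (120908195 to 120922819). Sdsl had the lowest wild-type level of the 43 per kilobase and stood at 10.6, 8.94 and 8.10 CPM, and reached 21.5, 21.8 and 17.05 CPM in knockout. The groups did not overlap (9.20 ± 1.26 against 20.1 ± 2.65 CPM), on 43 to 62 counts in wild type and 94 to 127 in knockout. Sdsl rose by 1.09 ± 0.21 on the log2 scale (SE; 2.13-fold, adjusted p = 0.004755).

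Gcat, glycine C-acetyltransferase, acts in mitochondria after threonine dehydrogenase and splits the product of threonine into glycine and acetyl-CoA. Its level was 40.6, 44.7 and 36.05 CPM in wild-type livers and 79.7, 67.35 and 79.7 CPM in knockout. All knockout libraries exceeded all wild-type libraries, 75.6 ± 7.14 against 40.45 ± 4.33 CPM (SD, n = 3). Gcat (ENSMUSG00000006378; mm9 chromosome 15, 78861346 to 78867891) rose by 0.91 ± 0.13 on the log2 scale (SE, adjusted p = 0.00083). Gldc is the glycine decarboxylase, or P protein, of the mitochondrial glycine cleavage system. In wild type it stood at 235.6, 233 and 236 CPM, and in knockout at 339.6, 338 and 334 CPM. Replicates differed by a few CPM in both groups (235 ± 1.48 and 337 ± 3.13 CPM, SD, n = 3), and the gap between the groups was much wider than that. Gldc (ENSMUSG00000024827; mm9 chromosome 19, 30172939 to 30249908) rose by 0.52 ± 0.09 on the log2 scale (SE, adjusted p = 0.00296).

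Of the other proteins of the cleavage system, Amt and Gcsh were not past the threshold. Amt, the aminomethyltransferase or T protein, had 56.7 ± 2.475 CPM in wild-type livers and 68.9 ± 2.86 CPM in knockout (SD, n = 3), without overlap, a log2 difference of 0.28 (adjusted p = 0.107). Gcsh, the lipoic acid carrying H protein, had 68.1, 59.9 and 59.7 CPM in wild-type livers and 62.1, 67.55 and 65.1 CPM in knockout. Its groups overlapped, and the 95% interval of its log2 difference of 0.06 ran from -0.19 to 0.30. Dld, the L protein, which is no member here and was named after its values were seen, stood at 153 ± 5.17 CPM in wild-type livers and 121 ± 3.66 CPM in knockout. Its log2 difference of -0.33 passed (adjusted p = 0.03797) and was called in only 1 of the 6 fits without 1 library, the one without wild-type library 1. In this complex, then, the P protein was called higher and the L protein lower.

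Of the 3 proline enzymes, the one of the last step rose. Aldh4a1, the mitochondrial dehydrogenase that turns pyrroline-5-carboxylate into glutamate, stood at 452, 423 and 349 CPM in wild-type livers and 641, 611 and 687 CPM in knockout. All knockout values exceeded all wild-type values (646 ± 37.9 against 408 ± 53.0 CPM, SD, n = 3). Aldh4a1 (ENSMUSG00000028737; mm9 chromosome 4, 139178781 to 139205605) rose by 0.67 ± 0.11 on the log2 scale (SE, adjusted p = 0.00203). The enzymes that open the pathway did not pass. Prodh2, hydroxyproline dehydrogenase, had 222, 169.6 and 178 CPM in wild-type livers and 209.6, 188 and 215 CPM in knockout, values that overlapped (log2 difference 0.11, adjusted p = 0.555). Prodh, proline dehydrogenase, had 149.8 ± 31.0 CPM against 183 ± 22.1 CPM (SD, n = 3), a log2 difference of 0.30 (adjusted p = 0.172) that passed only without wild-type library 1.

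Of the alanine and aspartate aminotransferases, which move amino groups between these amino acids and keto acids, the mitochondrial alanine enzyme rose. Gpt2 stood at 546, 487 and 460.5 CPM in wild-type livers and 799.7, 799 and 789 CPM in knockout. The knockout libraries were nearly equal and all above wild type (796 ± 5.85 against 498 ± 43.9 CPM, SD, n = 3). Gpt2 (ENSMUSG00000031700; mm9 chromosome 8, 88016475 to 88051459) rose by 0.68 ± 0.10 on the log2 scale (SE; 1.60-fold, adjusted p = 0.00083). Gpt, its cytosolic counterpart, had 339, 251.5 and 258 CPM in wild-type livers and 275, 296 and 335 CPM in knockout. Those groups overlapped, with a log2 difference of 0.11 and a 95% interval from -0.17 to 0.38. Per kilobase, the ratio of Gpt2 to Gpt within a library was 0.509, 0.611 and 0.563 in wild type and 0.916, 0.851 and 0.743 in knockout, so the mitochondrial form made up more of the pair in each knockout library. Got1, the cytosolic aspartate aminotransferase, varied widely, with 305, 195.6 and 225.8 CPM in wild-type livers and 424, 315 and 270.2 CPM in knockout. Its groups overlapped, and the log2 difference of 0.47 ± 0.17 (SE) had an adjusted p of 0.08455; it passed where either wild-type library 1 or knockout library 3 was left out. Got2, the mitochondrial aspartate enzyme, differed by 0.11 (adjusted p = 0.52).

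Glyoxylate is removed by Agxt, alanine-glyoxylate aminotransferase, which makes glycine from it with alanine as donor. Agxt stood at 268, 242 and 258 CPM in wild-type livers and 352, 326 and 389 CPM in knockout, with no overlap (256 ± 13.3 against 356 ± 32.0 CPM, SD, n = 3). Agxt (ENSMUSG00000026272; mm9 chromosome 1, 95031822 to 95041984) rose by 0.47 ± 0.10 on the log2 scale (SE, adjusted p = 0.00927). Hao1, the peroxisomal glycolate oxidase that produces glyoxylate, had 206.1, 210.0 and 209.9 CPM in wild-type livers and 211.5, 210.5 and 213.7 CPM in knockout. The knockout values were all just above wild type, but the log2 difference was 0.02, with a 95% interval from -0.18 to 0.22.

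**Figure D3:**
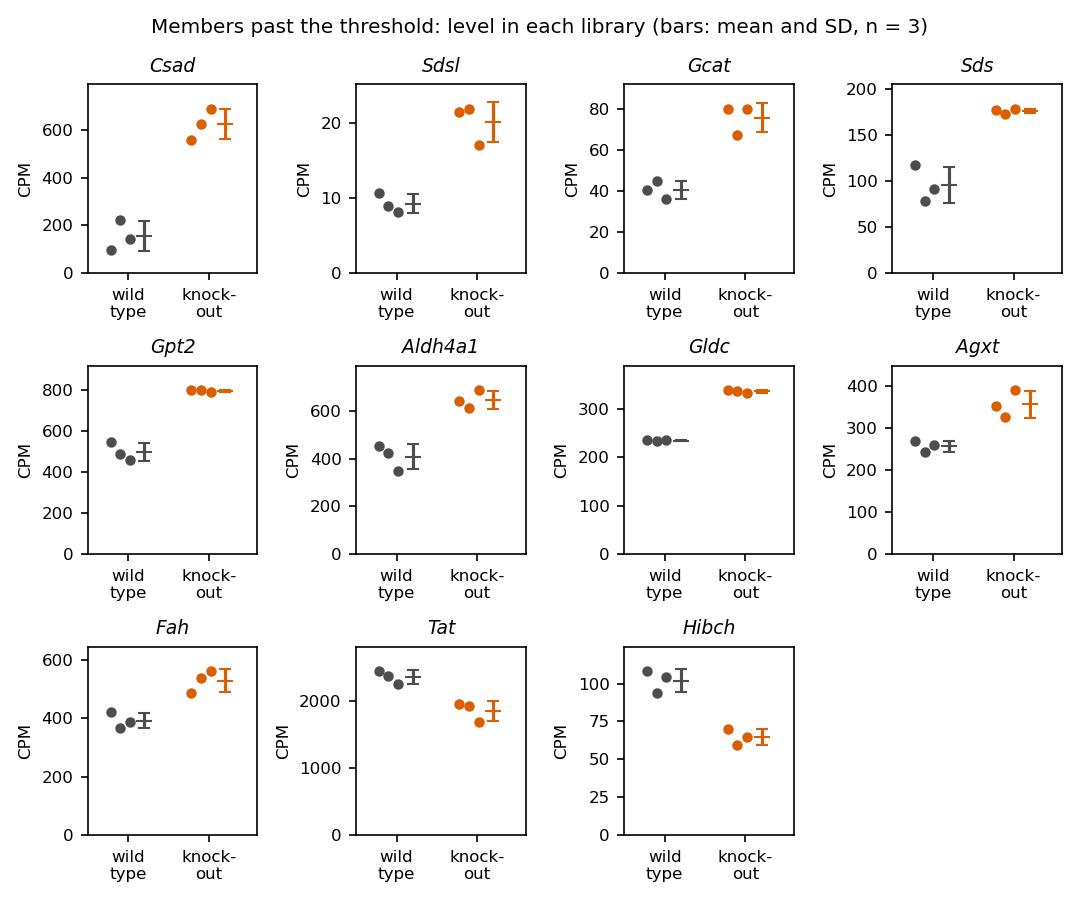
CPM in each library for the 11 enzymes past the threshold (y axis from 0, a scale for each gene; points are libraries, bars are mean and SD, n = 3). In all 11 panels the knockout points lie wholly above or, for Tat and Hibch, wholly below the wild-type points.

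The first and the last enzyme of tyrosine breakdown moved in opposite directions: of the 6 phenylalanine and tyrosine enzymes, 1 rose and 1 fell (median log2 difference -0.08). Tat, tyrosine aminotransferase, opens tyrosine breakdown and is often rate-limiting. It stood at 2447, 2378 and 2252 CPM in wild-type livers and 1957, 1927 and 1685 CPM in knockout. All knockout libraries were lower (1856 ± 149 against 2359 ± 99.1 CPM, SD, n = 3). Tat (ENSMUSG00000001670; mm9 chromosome 8, 112514337 to 112523703) fell by 0.35 ± 0.10 on the log2 scale (SE, adjusted p = 0.0284). It did not pass in the fits without 1 library, each of which gave an adjusted p from 0.05042 to 0.0992, with differences from -0.39 to -0.28. Fah, fumarylacetoacetate hydrolase, closes the pathway by yielding fumarate and acetoacetate. Fah stood at 421, 368 and 388 CPM in wild-type livers and 487, 539 and 562.5 CPM in knockout. Here all knockout libraries were higher (529.6 ± 38.6 against 392.5 ± 26.4 CPM, SD, n = 3). Fah (ENSMUSG00000030630; mm9 chromosome 7, 91733669 to 91755232) rose by 0.43 ± 0.10 on the log2 scale (SE, adjusted p = 0.0127), with an adjusted p of 0.0601 without wild-type library 3. Per kilobase, the ratio of Fah to Tat was 0.197, 0.177 and 0.197 in wild type and 0.285, 0.320 and 0.382 in knockout. All knockout values lay above wild type for Fah and below it for Tat, so this ratio had to separate and adds no evidence.

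Between these ends, Hpd and Hgd did not pass. Hpd, hydroxyphenylpyruvate dioxygenase, had 2730, 2266 and 2365 CPM in wild-type livers and 2475, 2223 and 2568 CPM in knockout. Its values overlapped, and the 95% interval of the log2 difference of -0.02 ran from -0.24 to 0.20. Hgd, homogentisate dioxygenase, differed by 0.15 (adjusted p = 0.343). Pcbd1 and Qdpr, which regenerate the tetrahydrobiopterin that phenylalanine hydroxylation uses, differed by -0.20 and -0.15 (adjusted p = 0.277 and 0.339).

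**Figure D4:**
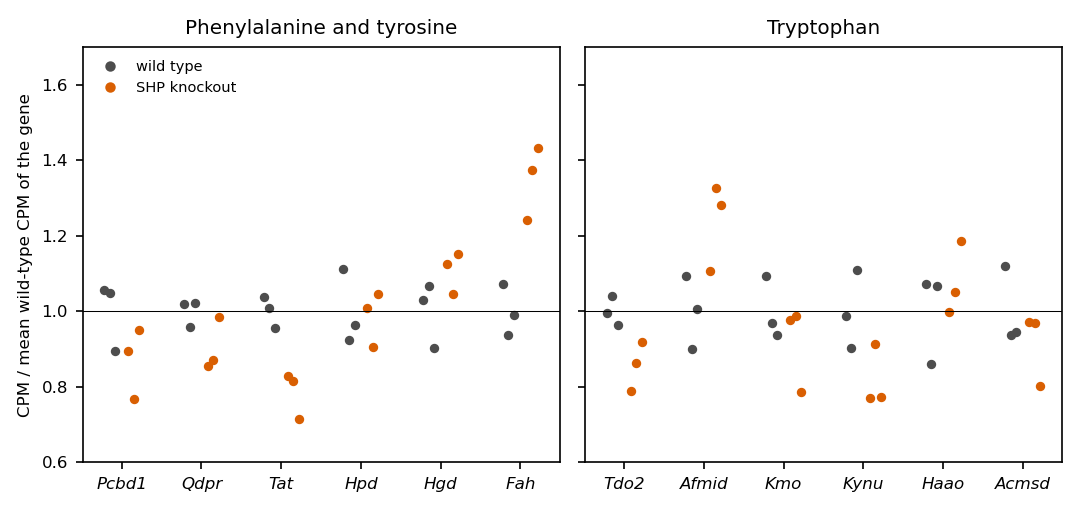
CPM of each library relative to the wild-type mean of the gene (y axis, a ratio) for the phenylalanine and tyrosine enzymes and the tryptophan enzymes in pathway order. In the left panel the knockout points lie below wild type at Tat and above it at Fah; in the right panel no gene was past the threshold.

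None of the 6 tryptophan enzymes passed (limma voom), and 4 of the 6 differences were negative (median -0.14). An unadjusted p under 0.05 was reached by 3, with no share of all genes at that cut to set beside it. Tdo2, tryptophan dioxygenase, opens the kynurenine pathway. It stood at 1927, 2019 and 1868 CPM in wild-type livers and 1527, 1671 and 1783 CPM in knockout. Its groups did not overlap, yet the log2 difference of -0.22 (95% interval -0.43 to -0.02) had an adjusted p of 0.1304. Afmid, the kynurenine formamidase of the next step, differed by 0.31 without overlap (adjusted p = 0.0826). Further along, Kmo, the kynurenine hydroxylase, differed by -0.13, Kynu, kynureninase, by -0.29 (adjusted p = 0.09897), Haao, which opens the ring of hydroxyanthranilate, by 0.11, and Acmsd, which diverts the product away from NAD synthesis, by -0.15. None of the 6 leave-one-out fits called a tryptophan enzyme. The summed level of the 6 was 3122 to 3223 CPM in wild-type livers and 2681 to 2943 CPM in knockout. Tdo2 made up most of this sum, which therefore does not describe each step, and Afmid and Haao differed upward.

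Among 8 branched-chain enzymes, none rose and 1 fell (median log2 difference 0.04). Hibch hydrolyses hydroxyisobutyryl-CoA, a step particular to valine. Hibch stood at 108, 93.5 and 104 CPM in wild-type livers and 70.1, 59.5 and 65.0 CPM in knockout. All knockout libraries were lower (64.9 ± 5.31 against 102 ± 7.64 CPM, SD, n = 3). Hibch (ENSMUSG00000041426; mm9 chromosome 1, 52901892 to 52977704) fell by 0.66 ± 0.12 on the log2 scale (SE, 1.58-fold, adjusted p = 0.00272). The branched-chain keto acid dehydrogenase, which commits all 3 branched-chain amino acids to breakdown, showed no call in its E1 and E2 subunits, while Dld, its E3 subunit and also the L protein of glycine cleavage, was called lower as given there. Bckdha and Bckdhb, its E1 subunits, differed by 0.12 and 0.04, and Dbt, its E2 subunit, by 0.06. Ivd, isovaleryl-CoA dehydrogenase of the leucine route, had 203.5, 193 and 160.1 CPM in wild-type livers and 251.7, 207 and 240.4 CPM in knockout. Its groups did not overlap, and the log2 difference of 0.33 ± 0.12 (SE) had an adjusted p of 0.0771. Mccc1 and Mccc2, the subunits of methylcrotonyl-CoA carboxylase, differed by 0.04 and -0.04. Acadsb, a dehydrogenase of the isoleucine route, had 175 ± 9.49 CPM in wild-type livers and 156 ± 0.457 CPM in knockout (SD, n = 3), a log2 difference of -0.16 (adjusted p = 0.289).

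None of the 4 histidine enzymes passed (limma voom). An unadjusted p under 0.05 was reached by 2, with opposite signs, again with no share of all genes to set beside it. Hal, histidine ammonia-lyase, removes the amino group first. It had 668, 546 and 555 CPM in wild-type livers and 560.4, 585 and 596 CPM in knockout. These overlapped, with a log2 difference of -0.02 and a 95% interval from -0.24 to 0.21. Uroc1, urocanate hydratase, differed by 0.19. Amdhd1, imidazolonepropionase, was lower in each knockout library (237.5 ± 3.47 against 292 ± 14.1 CPM, SD, n = 3), with a log2 difference of -0.30 and an adjusted p of 0.05102. Ftcd, which passes the formimino group to tetrahydrofolate at the last step, was higher in each (461 ± 18.5 against 375 ± 24.6 CPM, SD, n = 3), with a difference of 0.30 and an adjusted p of 0.0531. Both sit just outside the threshold: Ftcd passed without wild-type library 1, and Amdhd1 in none of the 6 fits without 1 library. Hal and Amdhd1 lie 4033 bases apart on chromosome 10.

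Of the lysine enzymes, none of the 2 passed and none had an unadjusted p under 0.05 (limma voom). Gcdh, glutaryl-CoA dehydrogenase, had 559, 515 and 503 CPM in wild-type livers and 627, 525 and 591 CPM in knockout. Those groups overlapped, with a log2 difference of 0.14 and a 95% interval from -0.08 to 0.36. Aass, the bifunctional enzyme that opens lysine breakdown, differed by -0.02, with an interval from -0.24 to 0.21.

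Some values may carry reads of a neighbour or a copy. Strand use in the counting was not given in the sources used here; therefore reads where genes overlap on opposite strands cannot be told apart. Sds overlaps Plbd2 on the opposite strand by 651 bases, and Plbd2 rose too (log2 difference 0.64, adjusted p = 0.00427), with 670 counts in wild type and 1042 in knockout against 1635 and 2983 for Sds. Afmid overlaps Tk1 on the opposite strand by 10567 bases, and Tk1 rose by 0.75 (adjusted p = 0.0261), with 231 and 393 counts against 2990 and 3700; leaving out knockout library 3, or either of wild-type libraries 2 and 3, ended the call of Tk1. Acadsb overlaps Fgfr2 on the opposite strand by 35611 bases, with 909 counts for Fgfr2 in wild type and 763 in knockout against 2960 and 2645, and Fgfr2 did not pass (log2 difference -0.25, adjusted p = 0.242). Kmo, Bckdha, Prodh and Gcdh also overlap a tested gene on the opposite strand (Fh1, B3gnt8, Dgcr6 and Syce2), and these neighbours did not pass. Opposite-strand entries with few counts overlap Bckdhb, Dbt, Mccc1, Sds and Gldc. On the same strand, Afmid overlaps Syngr2 by 4616 bases, with 498 counts for Syngr2 in wild type and 519 in knockout. Syngr2 did not pass (limma voom, log2 difference 0.06, adjusted p = 0.815). Bckdhb overlaps Ttk on the same strand by 37665 bases, with 1 and 0 counts for Ttk. Reads in same-strand overlaps cannot be told apart by strand. Stretches of 36 bases, the read length, were compared with the transcripts of other genes in a later annotation. They were shared for 46.7% of positions in Gcat (with another entry of the same name), 30.8% in Aldh4a1 (Gm21969), 23.7% in Sds (mostly Plbd2), 4.23% in Csad (Zfp740), 53.2% in Bckdha (B3gnt8), 43.8% in Afmid (mostly Gm20708), 29.6% in Got2 (Gm10874 and a Got2 pseudogene) and 13.9% in Qdpr (Gm42413). Levels of these genes are uncertain to the extent that the counting split or dropped such reads.

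Other enzymes of the same pathways, taken from lists of 95 genes outside the 43, give the surroundings: of 79 tested, 19 rose, 7 fell and 53 did not pass (median log2 difference 0.02). Over all 11794 genes tested, 7.58% were called higher and 6.94% lower. In the counts by list that follow, Aadat (not past the threshold) is in the tryptophan and the lysine list, and Pipox (lower) in the lysine and the glycine, serine and threonine list, so both are counted in each. Methionine and cysteine genes gave 5 higher and 1 lower of 10, and the remaining glycine, serine and threonine genes 5 and 2 of 12. Phenylalanine and tyrosine genes gave 3 and 2 of 9, those of glutamine, asparagine and aspartate 3 and 0 of 8, and those of proline and ornithine 1 and 0 of 6. For tryptophan the counts were 1 and 1 of 7, for branched-chain amino acids 1 and 1 of 20, and for lysine 0 and 1 of 9. Asns, asparagine synthetase, rose most clearly, from 2.53 ± 1.12 to 104 ± 31.6 CPM (SD, n = 3; log2 difference 5.41, adjusted p = 5.0e-05). Cth, cystathionine gamma-lyase, which makes the cysteine that Cdo1 oxidises, rose by 1.27. Dmgdh, which demethylates dimethylglycine toward glycine, rose by 0.84, and Ethe1, the persulfide dioxygenase of cysteine breakdown, by 0.99. Inmt, a methyltransferase of indole amines, fell by 1.13 on the log2 scale. Ddc, the aromatic amino acid decarboxylase, fell by 0.58, Maob, a monoamine oxidase, by 0.48, and Glyat, glycine N-acyltransferase, by 0.46. The calls of Ddc, Maob and Glyat were lost without wild-type library 3, that of Maob also without knockout library 2, and that of Glyat also without wild-type library 2 and knockout library 3. Glul, glutamine synthetase, and Glud1, glutamate dehydrogenase, which had the highest mean CPM of those not past the threshold, differed by 0.01 (95% interval -0.22 to 0.23) and -0.16 (-0.37 to 0.04). Without wild-type library 3, the counts over these genes were 7 higher and 1 lower; without knockout library 1, 4 were lower; and leaving out either wild-type library 2 or knockout library 2 gave 3 lower.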

How the data were processed

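The 6 libraries were barcoded, 3 to a lane, and read from both ends for 36 cycles, per the labels' protocols. The submitters' processing notes name Novoalign 2.05.33 and mm9. Counting tool, strand handling and annotation: not given in the sources used here. Whole-number counts per gene and library were deposited by the authors, with RPKM and a log2 ratio of pooled groups and p-value scores; only counts were tested. Because 4840 lines end early, the counts were recorded under a general unit, and limma voom was the main test. Of counts from 1 to 19, 61.8% were even, so counts are not independent fragments.

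Genes reaching 1.83 CPM in 3 libraries and 15 counts in all were tested. Trimmed means of M values gave scaling factors for the totals (0.966 to 1.03). Log2 CPM with 0.5 added were fitted with limma 3.58.1 in R 4.3.3, genotype as the only term, Benjamini-Hochberg over 11794 genes. The test was also run on simulated independent counts with changes larger than most seen here. That run does not check it on small differences or on counts that are not independent. Python 3.11.15, pandas 2.3.3 and matplotlib 3.10.9 were used.

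The enzymes and lists were chosen with earlier results of these data known. Per-library values are given for each enzyme past the threshold and, in each group, for its most abundant enzyme (mean CPM) not past it; other pathway genes are the 4 smallest adjusted p each way and the 2 of highest mean CPM not past it. Enzymes beyond this rule are described for completeness. Alternatives were other scalings, filters, variance models, a replicate block and leaving out each library. Library depth limits precision, and intervals cover the spread between 3 mice a group. The sources used here do not say which samples shared a lane, and a lane effect cannot be told apart from genotype.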

Additional observations from a re-analysis of the deposited data

How the results depend on the processing

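The 11 calls among the 43 enzymes were the same under robust variance moderation, median-of-ratios scaling, library totals alone and no low-count filter, and no difference of a called enzyme reversed. These scalings moved the median of all genes by at most 0.01. Without precision weights (limma trend) Amdhd1 was added, so that 1 histidine enzyme was lower; under a stricter filter (50 counts in place of 10) Amdhd1 and Ftcd were added, so that 1 histidine enzyme was lower and 1 higher. With the replicate block, Got1 was added, giving 2 aminotransferases higher (limma voom, adjusted p = 0.0138). Deviations of same-numbered libraries from their group means had correlations of -0.0187, -0.021 and -0.0244 over all genes tested. These values show no large shared deviation, but they cannot exclude pairing with a small effect. With 1 library left out, 8 to 12 of the enzymes were higher and 1 to 1 lower. By group, phenylalanine and tyrosine enzymes gave 0 to 1 higher and 0 to 0 lower, histidine 0 to 1 higher, proline 1 to 2 higher and aminotransferases 1 to 2 higher. Other pathway genes gave 7 to 19 higher and 1 to 6 lower, and 4 lower with no low-count filter. Over all genes, 340 to 844 were higher and 280 to 797 lower, lowest without wild-type library 3; the higher count also fell by over 1.5 times without knockout library 1 (582), and the lower count without wild-type library 2 (545), knockout library 1 (483) and knockout library 2 (493). Each of these fits holds 1 library fewer; no other cause was tested. Depth limits Sdsl most: it rests on 43 to 127 counts a library, and its standard error is 0.21.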
